A study of Mus musculus with 96 samples.

Results

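The 10 genes described here hold the mouse egg at metaphase of meiosis II (MII) or set the level and activity of cyclin B and its kinase Cdk1: Fbxo43, Cdc20, Bub1b, Ccnb1, Ccnb2, Ccnb3, Cdk1, Wee2, Cdc25b and Plk1. They were taken by name from the 36935 gene symbols of one raw-count table, and all 10 were listed in it. The table has 96 columns, each a library from 1 picked cell or a negative control, of a mouse line with the P620A variant of Padi6, a protein of the egg cytoplasm. The labels give 22 columns to MII oocytes of Padi6P620A/P620A females, 22 to 2-cell blastomeres with the genotype Padi6MatP620A/+, 22 to Padi6+/+ oocytes, 22 to Padi6+/+ 2-cell blastomeres and 8 to negative controls. Females were 4 to 8 weeks old and primed with gonadotropins, males were 8 to 12 weeks old, and 2-cell embryos came from fertilisation in vitro. No animal is named for any column, so the number of females behind a label was not known.

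A column was kept with 100000 or more counts and 4000 or more detected genes, which left 79 of 96. Because the stage labels disagreed with stage genes, the kept columns were sorted by RNA and not by label. A column was called oocyte-like when Mos, the kinase that brings about MII arrest and whose RNA is lost after fertilisation, reached 100 CPM, counts per 1000000 counts of the column. It was called 2-cell-like when Mos lay below that level and a count of Zfp352 was present, whose transcription starts in the 2-cell embryo. This gave 39 2-cell-like and 39 oocyte-like columns and 1 in neither class. The 2-cell-like columns carried the labels mutant oocyte (19), mutant 2-cell (11), wild-type oocyte (7) and negative control (2). The oocyte-like columns carried the labels wild-type 2-cell (14), wild-type oocyte (12), mutant 2-cell (9) and negative control (4), and none was labelled mutant oocyte.

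In the egg, cyclin B bound to Cdk1 forms the kinase that keeps the chromosomes condensed on the metaphase spindle. The anaphase-promoting complex (APC/C), a ubiquitin ligase switched on by Cdc20, marks cyclin B for destruction, and Fbxo43 (Emi2) blocks the complex until the calcium rise at fertilisation removes Fbxo43. Wee-type kinases restrain Cdk1 and Cdc25 phosphatases release it, and the spindle checkpoint, of which Bub1b is a part, delays anaphase while chromosomes lack attachment. These proteins are largely controlled after translation, whereas the data below are levels of polyadenylated RNA.

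The members that differed at least 2-fold between the classes are shown first by the DNA around their transcription start. The sequences are from RefSeq on GRCm38.p6, an earlier build than the GRCm39 to which the reads were aligned, and run from 250 bases before to 50 bases after the start on the gene's own strand, 5′ to 3′. They lie at chr2:118597961-118598260 (+) for Bub1b, chrX:7041570-7041869 (−) for Ccnb3, chr10:69352863-69353162 (−) for Cdk1 and chr2:131186698-131186997 (+) for Cdc25b. Fbxo43, the other member past 2-fold, had no entry. Capitals mark every match to CCAAT, the box bound by the factor NF-Y, which reads ATTGG on the other strand, and to TTTGAA, which reads TTCAAA there and is the core of the cell-cycle homology region found at many genes of mitosis.
Bub1b: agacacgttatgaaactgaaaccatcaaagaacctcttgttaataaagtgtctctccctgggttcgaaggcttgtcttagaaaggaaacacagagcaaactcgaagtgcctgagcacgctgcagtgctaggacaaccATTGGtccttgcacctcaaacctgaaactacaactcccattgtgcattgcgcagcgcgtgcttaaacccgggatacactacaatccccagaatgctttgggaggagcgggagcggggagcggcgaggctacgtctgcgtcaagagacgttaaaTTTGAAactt
Ccnb3: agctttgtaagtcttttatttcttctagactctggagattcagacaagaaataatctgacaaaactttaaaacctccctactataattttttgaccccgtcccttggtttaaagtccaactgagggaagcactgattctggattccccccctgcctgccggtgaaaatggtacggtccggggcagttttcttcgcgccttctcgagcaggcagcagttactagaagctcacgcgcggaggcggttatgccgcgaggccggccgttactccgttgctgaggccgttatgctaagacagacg
Cdk1: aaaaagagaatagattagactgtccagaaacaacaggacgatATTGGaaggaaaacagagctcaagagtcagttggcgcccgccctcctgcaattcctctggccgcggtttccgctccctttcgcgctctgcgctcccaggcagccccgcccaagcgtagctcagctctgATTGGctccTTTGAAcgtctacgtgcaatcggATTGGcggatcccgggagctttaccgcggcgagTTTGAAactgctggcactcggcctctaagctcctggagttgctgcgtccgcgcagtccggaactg
Cdc25b: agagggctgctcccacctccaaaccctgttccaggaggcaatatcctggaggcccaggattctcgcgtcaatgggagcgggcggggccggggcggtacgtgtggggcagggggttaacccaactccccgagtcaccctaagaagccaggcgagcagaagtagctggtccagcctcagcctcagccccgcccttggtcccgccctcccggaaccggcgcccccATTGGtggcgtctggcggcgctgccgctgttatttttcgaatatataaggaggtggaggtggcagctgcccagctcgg
Bub1b, lower in 2-cell-like columns, and Cdk1, higher in them, each hold both letter strings. Cdc25b holds the CCAAT string alone and Ccnb3 holds neither. Of the 9 members with an entry, 8 held CCAAT, 5 held TTTGAA and 5 held both, with no overlap between the strings. Among all 32851 windows of the same length, 37.4% held CCAAT, 17.9% held TTTGAA and 6.95% held both. A match is a run of letters and not a measured binding site.

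Kept libraries held from 503644 to 3185910 gene counts (median 1608305) in the 2-cell-like class and from 162539 to 5762563 (median 3235838) in the oocyte-like class. The median number of detected genes was 10370 in 2-cell-like and 13671 in oocyte-like columns. Mos ran from 0 to 63.3 CPM (median 0) in the 2-cell-like class, its highest value in library 73, and from 201 to 6139 CPM (median 1786) in the oocyte-like class, its lowest in library 61. Zfp352 ran from 0.566 to 815 CPM (median 201) in the 2-cell-like class, on as little as 1 count, and had 0 counts in all 39 oocyte-like columns. Lists of markers that include these genes were read beside the classes. The 10 oocyte markers took 0.307% to 1.20% of counts in 2-cell-like columns and 0.491% to 7.61% in oocyte-like ones, with an overlap. The 9 2-cell markers in the table took 0.00607% to 0.362% in 2-cell-like and 0 to 0.00158% in oocyte-like columns, with Zfp352, Tdpoz3, Tdpoz4, AF067061 and Eif1ad6 at 0 in all oocyte-like columns. Cumulus and granulosa markers, of the somatic layers that surround the egg, took 0 to 0.0162% of counts in 2-cell-like columns, with Ptx3, Hsd17b1 and Foxl2 at 0, and 0.00115% to 0.954% in oocyte-like ones. They passed 0.1% in 0 2-cell-like and 11 oocyte-like columns. With those 11 left out, the class ratio of Bub1b was 0.0131, that of Cdk1 4.80 and that of Plk1 0.494, and 4 members were 2-fold or more lower and 2 higher. Padi6 pooled at 217 CPM in 2-cell-like and 4525 CPM in oocyte-like columns, and since the variant changes the protein, its RNA level checks no genotype label.

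2-cell-like columns differed from oocyte-like columns most at Bub1b, and no other member had separate ranges. Of the 10 members, Bub1b, Ccnb3 and Fbxo43 stood 2-fold or more lower in the pool of 2-cell-like columns and Cdk1 and Cdc25b 2-fold or more higher, while Plk1, Ccnb1, Ccnb2, Cdc20 and Wee2 lay within 2-fold. Among all 9677 genes compared, 27.8% were lower and 20.9% higher by this measure, so shares of 3 and 2 among 10 members are near the background. The median log2 ratio was -0.42 over the members and -0.08 over all genes. The classes were set by RNA in these same columns and each label is 1 sample without named animals, so no test was run; a ratio carries a 95% interval that covers counting error only. CPM is a share of a library, so a smaller amount per cell and a larger amount of other RNA cannot be told apart.

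**Figure D1:**
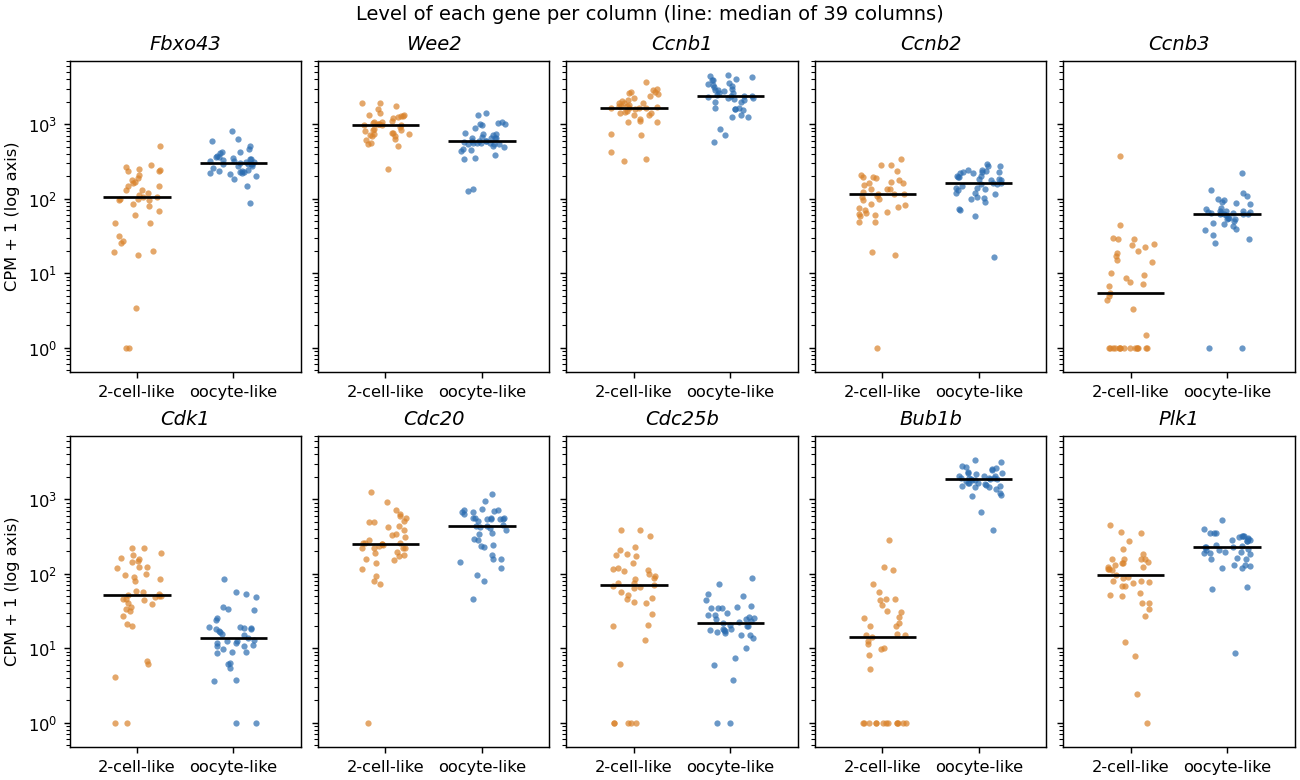
Level of each gene in each library as CPM + 1 on a log axis, 2-cell-like columns in orange and oocyte-like columns in blue, with the median of 39 columns as a line. Bub1b is the panel in which the classes are apart (0 to 283 CPM against 381 to 3339 CPM), and Cdk1, Cdc25b and Wee2 have the higher median in 2-cell-like columns.

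Fbxo43, the APC/C inhibitor that holds MII arrest, had 0 to 503 CPM (median 105) in 2-cell-like columns, against 85.5 to 814 CPM (median 303) in oocyte-like columns. The ranges overlapped, though 15 of 39 2-cell-like columns lay below every oocyte-like one and 2 held no count. The pooled levels were 121 and 322 CPM, 2.66-fold lower in 2-cell-like columns (2.60 to 2.73), and 2.54-fold to 2.89-fold lower with any 1 column left out. Of all compared genes, 20.6% had a lower ratio.

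Cdc20, which activates the APC/C toward cyclin B, had 0 to 1256 CPM (median 249) in 2-cell-like columns, against 45.1 to 1194 CPM (median 436) in oocyte-like columns. The ranges overlapped over most of their length, and the pooled levels of 348 and 426 CPM were a 1.22-fold difference (ratio 0.817, lower in 2-cell-like columns). Exons of Cdc20 overlap those of Elovl1 on the opposite strand, which stood at 60.3 CPM in 2-cell-like and 16.7 CPM in oocyte-like columns, and the kit marks no strand, so reads of the shared stretch cannot be told apart.

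Bub1b encodes BubR1, a kinase-like protein of the spindle checkpoint that also stabilises attachment of chromosomes. It had 0 to 283 CPM (median 13.2) in 2-cell-like columns, against 381 to 3339 CPM (median 1880) in oocyte-like columns, so every 2-cell-like column lay below every oocyte-like one. Only 0.434% of compared genes (42 of 9677, Mos and other genes that follow the sorting among them) had ranges that did not overlap. Pooled, Bub1b stood at 26.5 and 1844 CPM, 69.7-fold lower in 2-cell-like columns (66.4 to 73.1). The ratio moved from 66.7-fold without library 45 to 86.0-fold without library 43, and 1.07% of compared genes had a lower one. The ratio was 0.0144 in the pool and 0.00755 between medians, with 1 CPM added to each median here and in every ratio between medians below. A count of Bub1b was present in 26 of 39 2-cell-like columns and in 39 of 39 oocyte-like ones, and in 22 and 39 after each library was thinned to 100000 counts. The highest 2-cell-like values were 283 CPM in library 81, 124 CPM in library 43 and 110 CPM in library 79. The lowest oocyte-like value, 381 CPM, was that of library 61, which also had the lowest Mos of its class and a cumulus and granulosa marker share of 0.954%.

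Ccnb1, the main partner of Cdk1 in M phase, was the most abundant member per kilobase of exon in both classes, with 323 to 3747 CPM (median 1672) in 2-cell-like columns, against 573 to 4554 CPM (median 2409) in oocyte-like columns. The ranges overlapped over most of their length, and the pooled ratio was 0.725, or 1.38-fold lower in 2-cell-like columns. Ccnb2, another B-type cyclin that can stand in for cyclin B1 in mouse oocytes, had 0 to 339 CPM (median 113), against 15.3 to 293 CPM (median 160), a ratio of 0.769. Both cyclins therefore kept most of their share of the library in 2-cell-like columns. Neither reached 2-fold in any of the 14 settings tried, in which the ratio ran from 0.585 to 0.740 for Ccnb1 and from 0.619 to 0.790 for Ccnb2. Some of the 14 could not move a member's ratio, namely no gene filter, 50 CPM or more, and Mos at 200 CPM, which gave the same classes.

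Ccnb3, the B-type cyclin that mouse oocytes need to leave metaphase of meiosis I, was the scarcest of the 3 cyclins per kilobase of exon. It had 0 to 368 CPM (median 4.39) in 2-cell-like columns, against 0 to 223 CPM (median 62.0) in oocyte-like columns, and it held a count in 24 and 37 of 39 columns, or 17 and 37 after thinning. The pooled levels were 15.1 and 62.3 CPM, 4.14-fold lower in 2-cell-like columns (3.87 to 4.43). One column, library 42 with 368 CPM, carried much of the 2-cell-like pool: without it the difference was 7.54-fold. The ratio of medians, with 1 CPM added to each, was 0.0856. The cyclin RNAs thus differed in what 2-cell-like columns still held, with ratios of 0.725 for Ccnb1, 0.769 for Ccnb2 and 0.242 for Ccnb3.

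**Figure D2:**
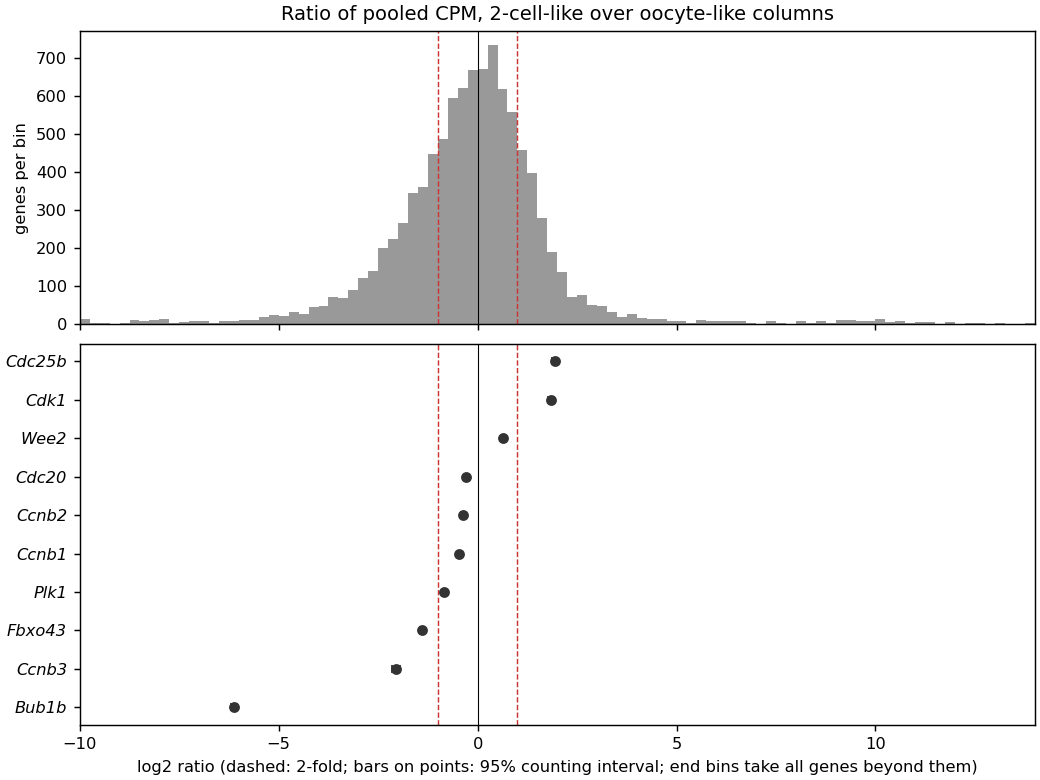
Upper panel, number of compared genes by log2 ratio of pooled CPM, 2-cell-like over oocyte-like, in bins of 0.25; lower panel, the 10 genes on the same axis with 95% counting intervals. Cdc25b and Cdk1 lie to the right of the 2-fold line, Fbxo43, Ccnb3 and Bub1b to the left of it, and Bub1b is in the left tail of the distribution.

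Cdk1, the kinase of M phase, had 0 to 222 CPM (median 51.7) in 2-cell-like columns, against 0 to 83.9 CPM (median 12.9) in oocyte-like columns. Its ranges overlapped, with 15 of 39 2-cell-like columns above every oocyte-like one. Pooled, it stood at 72.9 and 20.2 CPM, a ratio of 3.60 (3.42 to 3.79), which ran from 3.30 without library 31 to 4.14 without library 61. It was 2.90 with DESeq2 size factors and 5.96 when each library was thinned to 100000 counts. The pooled level of the kinase was thus higher in the class in which those of its 3 cyclin partners were lower.

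Cdc25b, the phosphatase that mouse oocytes need to resume meiosis, had 0 to 382 CPM (median 69.5) in 2-cell-like columns, against 0 to 87.7 CPM (median 20.9) in oocyte-like columns. As for Cdk1, 15 of 39 2-cell-like columns lay above every oocyte-like one, and 5 held no count. The pooled levels were 97.4 and 25.4 CPM, a ratio of 3.83 (3.66 to 4.00), from 3.45 without library 27 to 4.17 without library 53. Exons of Spef1 overlap those of Cdc25b on the opposite strand, and Spef1 stood at 2.80 and 4.24 CPM in the same classes. Of compared genes, 92.2% had a lower ratio than Cdc25b and 91.5% a lower one than Cdk1.

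Wee2, the oocyte kinase that keeps Cdk1 inactive in prophase arrest and is also needed for exit from metaphase II, had 253 to 1956 CPM (median 979) in 2-cell-like columns, against 124 to 1396 CPM (median 597) in oocyte-like columns. It was detected in every column of both classes, and 5 of 39 2-cell-like columns lay above all oocyte-like ones. The pooled levels of 1012 and 645 CPM gave a ratio of 1.57 (1.55 to 1.58), between 1.26 and 1.64 over the 14 settings. Of the 5 members within 2-fold, Wee2 was the only one with a higher pooled level in 2-cell-like columns.

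Plk1, a kinase that acts on Cdk1 regulators and on Fbxo43, had 0 to 446 CPM (median 96.4) in 2-cell-like columns, against 7.63 to 523 CPM (median 226) in oocyte-like columns. The classes overlapped, and the pooled levels of 128 and 230 CPM were a 1.80-fold difference (1.75 to 1.84), lower in 2-cell-like columns. It lay at the edge of 2-fold: the difference was 2.02-fold without library 45 (446 CPM), and at least 2-fold in 5 of 14 settings. Plk1 overlaps the antisense gene model Gm44985, at 6.95 and 10.5 CPM in the same classes.

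Per kilobase of exon, the order of the members changed between classes mainly through Bub1b. In 2-cell-like columns the median level per kilobase ran from Ccnb1 (672 CPM per kb) through Wee2 (339), Cdc20 (139), Ccnb2 (73.8), Plk1 (43.8), Fbxo43 (26.0), Cdc25b (22.2), Cdk1 (11.6) and Bub1b (3.60) to Ccnb3 (0.961). The interquartile ranges over columns separated Ccnb1 from Wee2 and Wee2 from Cdc20, and those of all later neighbours overlapped. In oocyte-like columns the order was Ccnb1 (968 CPM per kb), Bub1b (513), Cdc20 (243), Wee2 (207), Ccnb2 (105), Plk1 (103), Fbxo43 (75.1), Ccnb3 (13.6), Cdc25b (6.66) and Cdk1 (2.89). There the neighbours Cdc20 and Wee2, Ccnb2 and Plk1, and Plk1 and Fbxo43 overlapped and the others did not. Only Ccnb3 stood below Bub1b in 2-cell-like columns, and only Ccnb1 stood above it in oocyte-like ones.

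**Figure D3:**
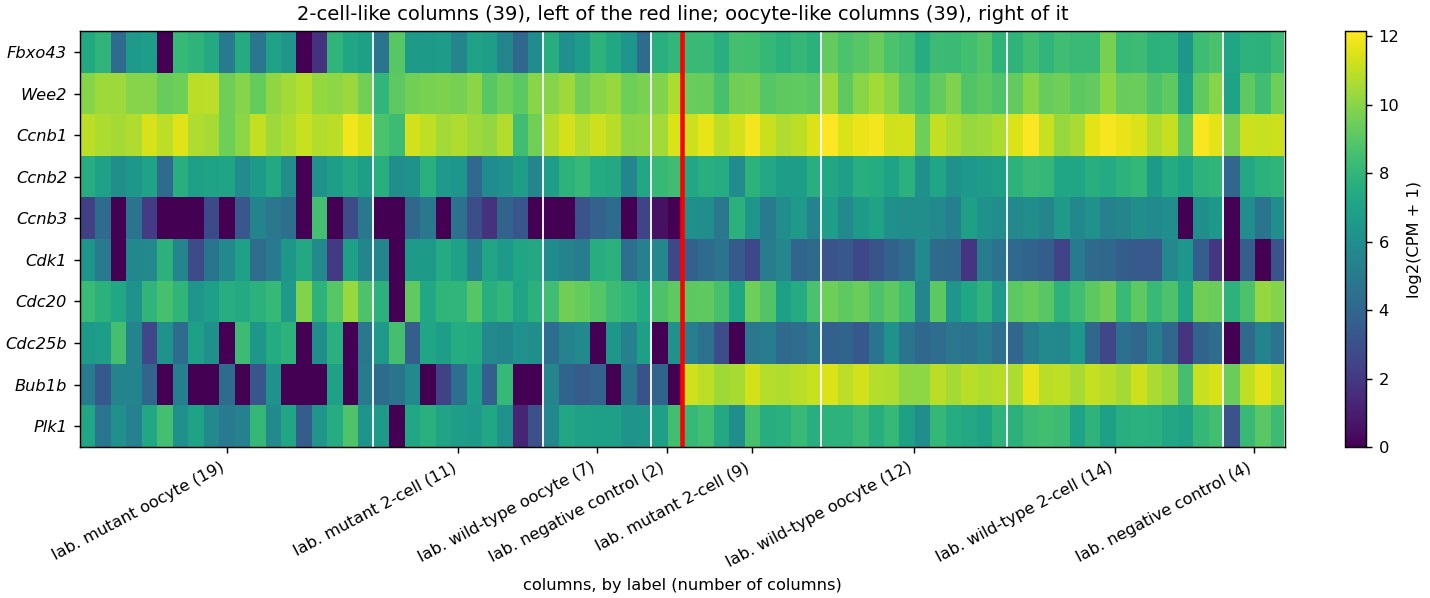
Level of each gene, log2(CPM + 1), in each of the 78 classed columns, grouped by class and then by label. Bub1b is lower in every column left of the red line than in every column right of it. The values nearest each other are 283 CPM in library 81 on the left and 381 CPM in library 61 on the right.

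The members also differed in how much they varied within a class. In oocyte-like columns Bub1b had a coefficient of variation of 32.3%, the lowest of the 10, and Cdk1 one of 94.5%, the highest. In 2-cell-like columns it was lowest for Wee2 (38.1%) and Ccnb1 (43.4%) and highest for Ccnb3 (326%) and Bub1b (182%). Fbxo43 (82.6% in 2-cell-like and 42.0% in oocyte-like columns) and Plk1 (83.7% and 44.4%) were likewise more even among oocyte-like columns. Cdk1 (81.6% and 94.5%) and Wee2 (38.1% and 41.9%) went the other way. Genes pooled at 100 to 400 CPM had median coefficients of 61.4% in the 2-cell-like class (1492 genes) and 41.4% in the oocyte-like class (1681 genes), so a wider spread in 2-cell-like columns was general at that level. The pooled levels of Bub1b, 26.5 and 1844 CPM, lay outside it. Thinning to 100000 counts left the values of Fbxo43 (81.2% and 48.5%) and Bub1b (173% and 32.9%) near these.

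Across the 39 oocyte-like columns the members moved together more than across the 39 2-cell-like columns. The median Spearman rho of log2(CPM + 1) over the 45 member pairs was 0.05 in 2-cell-like columns, with 2 pairs over 0.5 and 17 below 0, and 0.35 in oocyte-like columns, with 14 pairs over 0.5 and 10 below 0. Pairs of all genes were not read in the same way, so this difference cannot be called particular to the members. Bub1b and Ccnb3 also held no count in 13 and 15 of the 2-cell-like columns. In oocyte-like columns the highest were Bub1b with Plk1 (0.78), Fbxo43 with Wee2 (0.74), Ccnb1 with Cdc20 (0.72), Bub1b with Cdc20 (0.69) and Ccnb2 with Cdc20 (0.69). Cdk1 ran against Bub1b (-0.51), Plk1 (-0.43), Fbxo43 (-0.40) and Cdc20 (-0.38). In 2-cell-like columns Ccnb1 went with Cdc20 (0.59) and Plk1 (0.57). Columns come from one set of 96 libraries and differ in depth and in cumulus RNA. In oocyte-like columns rho with total counts ran from -0.20 for Cdc20 to 0.34 for Cdk1, and rho with the share of cumulus and granulosa markers was 0.43 for Cdk1, -0.47 for Plk1 and -0.38 for Bub1b. The part of these in the relations was not tested.

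**Figure D4:**
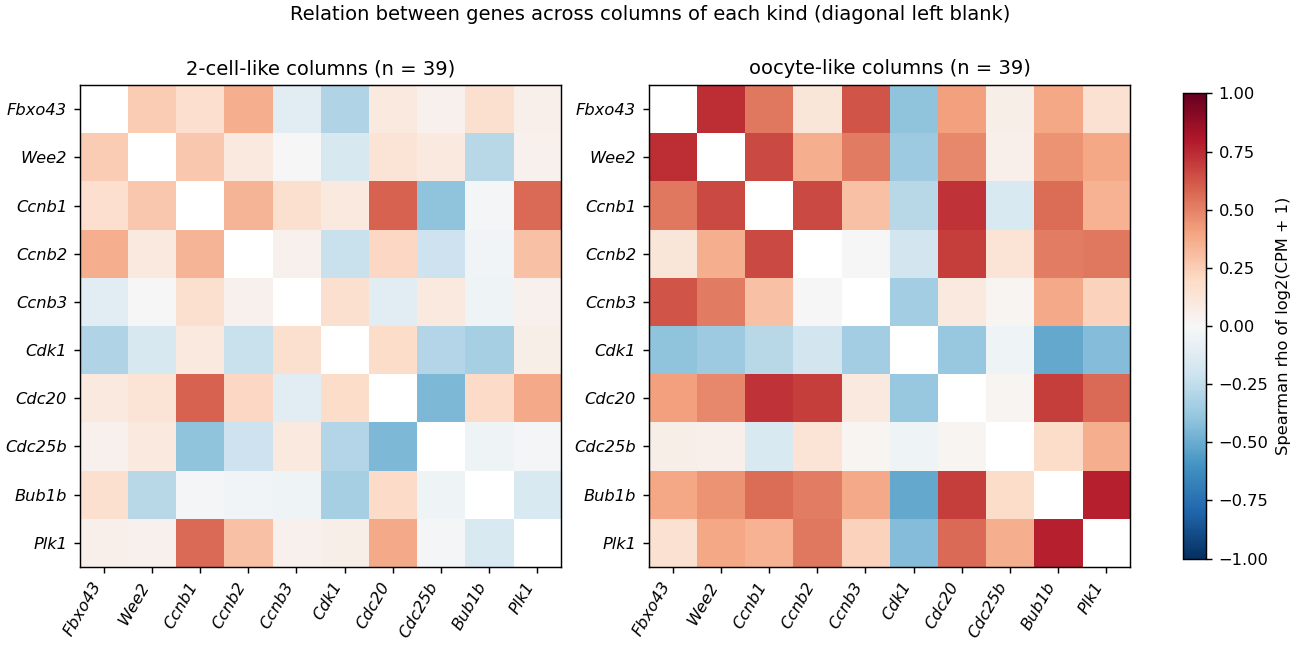
Spearman rho between the 10 genes across the 39 columns of each class, 2-cell-like on the left and oocyte-like on the right. Red is positive and blue negative; most pairs outside the rows of Cdk1 and Cdc25b are positive in oocyte-like columns, and fewer are in 2-cell-like columns.

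Among the 8540 genes with a pooled oocyte-like level of at least 10 CPM, the non-member gene most like each member across the oocyte-like columns was Kif20a for Cdc20 (rho 0.93), Gm44985 for Plk1 (0.91), Tada2a for Ccnb1 (0.89), Exoc1 for Ccnb2 (0.89), Gm45886 for Bub1b (0.86) and Tm9sf2 for Wee2 (0.81). It was Rfpl4 for Fbxo43 (0.80), Hif1a for Ccnb3 (0.77), Reln for Cdc25b (0.75) and Ubap1 for Cdk1 (0.72). Gm44985 is the model that overlaps Plk1 on the opposite strand, so its counts and those of Plk1 may be of the same reads.

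Around the members, the kinase cascade of MII arrest and the APC/C inhibitors had 15 of 16 listed genes compared, with 1 higher and 5 lower by 2-fold or more in 2-cell-like columns, with a median log2 ratio of -0.06. Beside this list and those below, 20.9% of all 9677 compared genes were higher and 27.8% lower, with a median of -0.08. The counts are therefore not read as traits of a list. Mos, which sorted the columns, stood at 4.79 and 1939 CPM. Mapk3 (ERK1), a kinase at the end of the Mos cascade, was 7.88-fold higher. Ppp3ca, a catalytic subunit of calcineurin, was 11.8-fold lower (a ratio of 0.0845, or 0.0521 between medians), and Rps6ka2, an ERK target kinase, 5.77-fold lower. The Ppp3ca median was 0 CPM in 2-cell-like columns, so its ratio between medians depends on the added 1 CPM. Rps6ka2 rested on few columns: its ratio of 0.173 became 0.262 without library 61, 0.0889 without library 31, also moved over 1.5-fold without library 45, and turned to 1.71 when the 11 oocyte-like columns with cumulus RNA were left out. Fbxo5 (Emi1), the mitotic relative of Fbxo43 and named here after its value was seen, was 3.44-fold lower, so both Emi-type inhibitors were lower in 2-cell-like columns.

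Subunits of the APC/C, its E2 enzymes and Fzr1 were compared for 17 of 17 listed genes, with 4 higher and 4 lower by 2-fold or more. Higher were Anapc15, a subunit that helps release the checkpoint complex (6.20-fold), Ube2s, the E2 that extends ubiquitin chains (2.72-fold) and Fzr1 (Cdh1), the activator that follows Cdc20 in mitotic exit (2.46-fold, or 1.98-fold with DESeq2 size factors). Lower were the structural subunits Anapc13 (6.09-fold), Cdc26 (4.09-fold) and Anapc4 (2.39-fold, a ratio of 0.418 that was 0.146 between medians). The Anapc13 ratio of 0.164 became 0.0917 without library 83, 0.0833 after thinning and 0.377 without the 11 columns with cumulus RNA. Lower genes of the list numbered 2 without those columns, and also 2 at 50 CPM or more. Higher ones numbered 2 with DESeq2 size factors. The list median of 0.22 was -0.09 with DESeq2 size factors, under which that of all genes shifted by -0.34.

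Other cyclins and regulators of Cdk1 were compared for 18 of 20 listed genes, with 4 higher and 5 lower and a median of 0.23 (-0.09 with DESeq2 size factors). At 50 CPM or more 3 of 12 compared genes were lower. Cdc25c, a phosphatase related to Cdc25b, was 10.6-fold higher, at 88.4 and 8.38 CPM, and Cdc25a, another relative, 3.94-fold lower, at 16.4 and 64.8 CPM. The Cdc25 genes therefore did not move as a family. Ccne1, the cyclin of the G1 to S step, was 7.83-fold higher, and Cks1b, a small Cdk-binding protein, 3.86-fold. Mnat1 (11.6-fold, with a ratio of 0.0864 that became 0.0561 without library 83) and Cdk7 (3.18-fold), partners in the kinase that activates Cdk1, were lower. So was Ccnh, the other partner, named after its value was seen, at 2.37-fold lower on low levels of 5.81 and 13.8 CPM.

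Spindle checkpoint genes other than Bub1b were compared for 12 of 13 listed, with 2 higher and 3 lower and a median of -0.43. The median was -0.76 between medians of columns, with 5 genes lower, and 0.01 over the 7 genes at 50 CPM or more, and 2 genes were lower by means or after thinning. Mad2l1bp, which helps switch the checkpoint off, was 3.86-fold higher, and Mad2l2, also a subunit of a DNA polymerase, 3.84-fold higher. Knl1, the kinetochore scaffold that recruits Bub proteins, was 2.69-fold lower, Bub3, the partner of Bub1b, 2.19-fold lower and Spdl1 2.14-fold lower (a ratio of 0.467, which with means was 0.556 and no longer 2-fold). The paralogue Bub1 was at a ratio of 0.765. The largest difference among the compared genes of this list was the 3.86-fold one of Mad2l1bp, against 69.7-fold for Bub1b. For anaphase entry and cohesin, 11 of 12 listed genes were compared, with 1 higher (Stag3, 12.2-fold, at 12.8 and 1.05 CPM) and 4 lower, among them Smc3 (8.87-fold), the protease gene Espl1 (2.60-fold) and Sgo2a, a protector of cohesin (2.44-fold), and a median of -0.39. The Stag3 ratio was 3.78 between medians, which were 2.78 and 0 CPM before 1 CPM was added, and 19.7 after thinning. At 50 CPM or more 0 genes of the list were higher.

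Mutant over wild-type labels were then compared within a class. The stage labels disagreed with stage genes and no RNA level checked the genotype labels, so the comparison is of labels and not of the Padi6 variant. In oocyte-like columns 9 carried a mutant label, all of them the 2-cell label, and 26 a wild-type one of either stage. Of the 10 members, 0 were higher and 0 lower by 2-fold or more, where 0.429% and 15.8% of 9093 compared genes were. The number of lower genes was 1437, and 816 without library 61. It was 228 of 8030 compared genes without the columns rich in cumulus RNA, 806 with means, 905 after thinning and 2242 in columns labelled 2-cell alone. Member ratios ran from 0.768 for Fbxo43 to 1.24 for Plk1, and that of Cdk1, 1.04, was 1.69 without the columns rich in cumulus RNA.

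Fbxo43 had 203 to 375 CPM (median 273) in the 9 oocyte-like columns with a mutant label, against 85.5 to 814 CPM (median 329) in the 26 with a wild-type label. Bub1b had 1362 to 2604 CPM (median 1901), against 381 to 3339 CPM (median 1842). Every mutant-labelled value of both genes lay inside the wild-type range. Plk1 had 64.6 to 396 CPM (median 207), against 61.7 to 356 CPM (median 220), and 1 mutant-labelled column lay above all wild-type ones. The counting interval of the ratio was 0.748 to 0.789 for Fbxo43 and 1.20 to 1.27 for Plk1, both narrower than the spread between columns.

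In 2-cell-like columns 30 carried a mutant label and 7 a wild-type one, all 7 labelled oocyte. The 30 pool 2 labelled genotypes, 19 Padi6P620A/P620A oocytes and 11 Padi6MatP620A/+ 2-cell blastomeres. Ccnb3 and Bub1b were at least 2-fold higher and 0 of the 10 members lower, where 18.6% and 6.32% of 8549 compared genes were. Ccnb3 had 0 to 368 CPM (median 5.92) under a mutant label, against 0 to 18.7 CPM (median 4.39) under a wild-type one, and its ratio of 3.10 (2.42 to 4.02) was 1.60 without library 42, 1.28 between medians and 5.13 after thinning. Thinned, it held a count in 14 of 30 mutant-labelled columns, below the 50% filter, so it was not among the genes compared there. Bub1b had 0 to 283 CPM against 0 to 45.2 CPM, with a median of 13.2 CPM in both. Its ratio of 2.10 (1.79 to 2.48) was below 2 when any 1 of libraries 4, 6, 8, 43, 79 and 81 was left out, and the ratio was 0.998 between medians and 1.13 after thinning. The Ccnb3 ratio thus leaned on library 42. That of Bub1b lay near 2, from 1.66 without library 43 to 2.67 without library 2. Above all 7 wild-type-labelled columns lay 8 of the 30 mutant-labelled ones for Ccnb3 and 5 for Bub1b. The lowest wild-type-labelled value was 0 CPM for both genes, so no column could lie below. With 30 columns set against the highest of 7, some above it are no sign of a shift.

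Other members in 2-cell-like columns lay within 2-fold by label. Cdc25b had 0 to 382 CPM (median 79.5) under a mutant label, against 0 to 120 CPM (median 40.6) under a wild-type one, with 9 of 30 columns above all 7, a ratio of 1.87 (1.72 to 2.02) and one of 2.47 without library 8 and 2.24 after thinning. Ccnb2 had 0 to 210 CPM (median 96.6), against 47.2 to 286 CPM (median 163), with a ratio of 0.572 (0.543 to 0.602) and 3 of 30 columns below all 7. Fbxo43 had 0 to 503 CPM (median 101), against 18.9 to 231 CPM (median 99.6). The stage labels are not balanced in this comparison, so genotype label and stage label cannot be fully told apart.

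**Figure D5:**
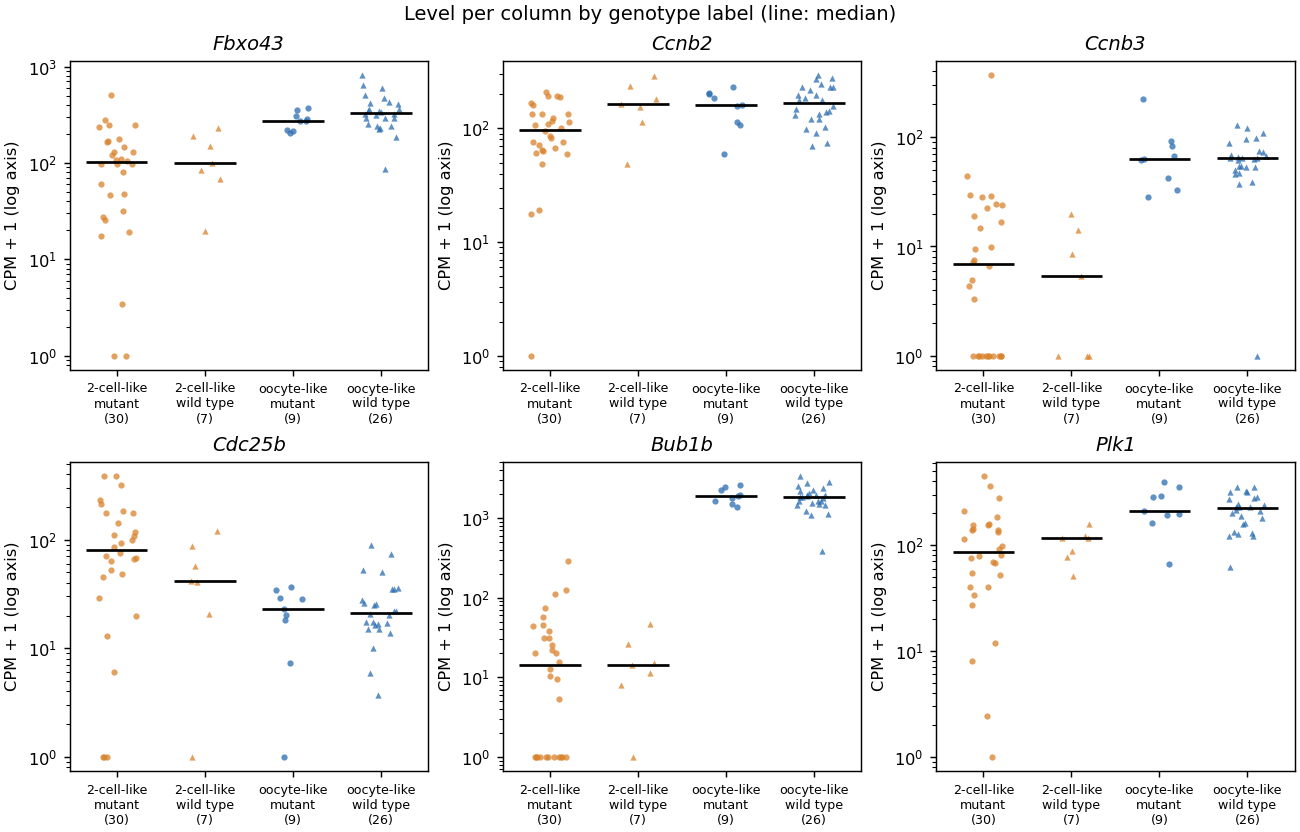
Level of 6 of the genes, CPM + 1 on a log axis, in columns with a mutant label (circles) and a wild-type label (triangles) of each class, with the median as a line. The gap between the classes is visible at Bub1b under both labels, while mutant and wild-type points of one class overlap in every panel.

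The comparison that the labels themselves imply was made over groups that mix the classes. Among columns labelled oocyte, the 19 labelled mutant were all 2-cell-like, and of 19 labelled wild type 7 were 2-cell-like and 12 oocyte-like. Here Cdc25b (3.23) and Cdk1 (2.11) were 2-fold or more higher and Bub1b (52.5-fold), Fbxo43 (2.71-fold) and Ccnb3 (2.61-fold) 2-fold or more lower, the members of the class comparison, against 16.8% and 22.7% of 9122 compared genes. Ranges did not overlap for 0 of the 10 members and for 0.0110% of compared genes. Bub1b had 0 to 124 CPM (median 9.22) under the mutant label, against 0 to 2794 CPM (median 1465) under the wild-type label. Its ratio was 0.0191 in the pool and 0.00697 between medians, and it was 82.8-fold lower without library 43. Cdk1 was below 2-fold without library 9, 11, 20, 31, 41 or 45, and 1.48 with means. Ccnb3 was 5.83-fold lower without library 42, and its ratio of 0.384 was 0.122 between medians, 0.576 with means and 0.613 after thinning. Both comparisons share columns, so neither is a check of the other.

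Among columns labelled 2-cell, 21 carried the mutant label, of which 11 were 2-cell-like, 9 oocyte-like and 1 in neither class, and all 14 with the wild-type label were oocyte-like. Of the 10 members, 0 passed 2-fold in either direction, where 7.88% of 9996 compared genes were higher and 11.8% lower. Without library 61 the lower genes numbered 410, and without library 86 they numbered 1941. Cdk1 and Cdc25b were both at a ratio of 1.95 and each passed 2 when 1 of 11 columns was left out, library 53 for one. After thinning the ratios were 4.40 for Cdk1 and 2.85 for Cdc25b, and without the columns rich in cumulus RNA 3.92 and 1.45. Bub1b had 0 to 2604 CPM (median 110) under the mutant label, against 381 to 3339 CPM (median 1866) under the wild-type label, with 12 of 21 columns below every wild-type one and 9 within their range. Its pooled ratio was 0.704, with 0.0597 between medians, 0.454 with means and 0.466 after thinning.

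Columns labelled negative control held these RNAs as well. The 2 of them in the 2-cell-like class had Bub1b at 0 and 13.9 CPM, Wee2 at 925 and 1589 CPM and Ccnb1 at 1428 and 2839 CPM. The 4 in the oocyte-like class had Bub1b at 676, 2038, 2055 and 3212 CPM and Ccnb1 at 872, 2258, 2409 and 2423 CPM. These values lie in the ranges of the other columns of each class. Other members had values outside them, with Ccnb2 at 339 CPM in 1 of the 2-cell-like columns, and in the oocyte-like columns Cdc20 at 952 and 1194 CPM, Plk1 at 7.63 and 523 CPM, Ccnb2 at 15.3 CPM and Cdk1 at 0 in 2. No background level was taken from this label. With all 6 left out, the members called higher and lower between the classes were the same in number, 2 and 3.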

How the data were processed

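Counts per gene and library were deposited by the authors as whole numbers with no normalization. Reads were trimmed with Trim Galore 0.4.4 and aligned with HISAT2 2.1.0 to GRCm39, per the submitters' processing notes, which also name DESeq2 without a version. The counter, its annotation and its treatment of strand and shared reads are not given in the sources used here. Per the labels' protocols, polyadenylated RNA of 1 cell was caught on oligo-dT beads, copied with template switching, amplified by PCR and tagmented, and no molecular identifiers are named. RNA with a short tail can escape such capture, and since PCR copies are not separate molecules, intervals and floors speak of counting error alone.

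The 36983 gene entries became 36935 symbols after 48 that repeated a symbol were summed, and every one of the 96 columns matched a sample. CPM was the count per 1000000 counts of its column. The stage-gene rule for columns is given in the report. Kept columns held 162539 to 5762563 counts, and no 2 held identical values. Classes and labels were compared by the ratio of pooled CPM with an exact conditional binomial 95% interval, and by ranges over columns. A gene was compared at 10 CPM or more pooled in 1 group and a count in at least 50% of the columns of the higher group, and called at 2-fold. A group with no count was set to 3 counts. The labels name no animal, each label is thus 1 sample, and no p-value was computed.

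The members and gene lists were chosen with earlier results of these data known. Named beside the members were Mos and Zfp352, up to 3 genes each way from 5 pathway lists with the largest ratio past 2-fold, and the genes with the highest rho to a member in oocyte-like columns. Alternatives were edgeR 4.0.16 TMM factors and DESeq2 1.42.0 size factors in R 4.3.3, means or medians over columns, other thresholds and filters, thinning to 100000 counts, and each column left out. Ratios between medians had 1 CPM added to each median. Other work used Python 3.11.15, numpy 2.4.6, pandas 2.3.3 and scipy 1.17.1, and the comparison was tested on simulated data. Levels per kilobase used the exon union of coding transcripts in GENCODE vM21 (GRCm38), and promoters the RefSeq table. No search for doublets was made, because cells were picked one at a time. One listed 2-cell marker was not analysed here.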

Additional observations from a re-analysis of the deposited data

Results flagged for a closer look

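In the 9 oocyte-like columns labelled mutant 2-cell, Ccnb3 reached 223 CPM in library 89, far above the next column at 90.6 CPM. Among the 4 oocyte-like columns labelled negative control, Ccnb1 was lowest at 872 CPM in library 23, and the next column stood at 2258 CPM. Of 30 groups of values examined in this way, 2 had such a distant column, and chance gives about 1 in 20.

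Library 86, labelled mutant 2-cell, lies in neither class, with 0 counts of Mos and of Zfp352 and a cumulus and granulosa marker share of 0.613%. It held Ccnb2 at 106 CPM, Ccnb1 at 10.5 CPM and Cdc20 at 1.68 CPM, and 0 counts of the other 7 members. Oocyte markers took 0.000800% of its counts, with 7 of 10 at 0.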

How the results depend on the processing

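No paired analysis was possible because the replicate numbers run through all 96 columns and no number occurs in more than 1 group. Between the classes, the 3 members lower and 2 higher kept their direction and their side of 2-fold in all 14 settings, and Plk1 crossed 2-fold in 5. The settings with no gene filter, at 50 CPM or more and with Mos at 200 CPM could not move a member's ratio, so they add nothing to these counts. All genes at least 2-fold lower numbered 6534 and higher 10196 with no gene filter, and 1262 and 900 at 50 CPM or more. Higher genes were 43.0% of those called, 33.4% with TMM factors, 29.2% with DESeq2 size factors, 30.7% with medians and 54.4% without columns rich in cumulus RNA. TMM factors moved the median of all genes by -0.24 and DESeq2 size factors by -0.34. Mos at 200 CPM gave the same classes. By label within 2-cell-like columns, members higher were 1 with TMM factors, thinning or columns labelled oocyte only (a setting chosen after seeing the data), 0 with medians, where Bub1b was at 0.998, and 1 to 2 with 1 column left out. The member called also changed. It was Ccnb3 with TMM factors or columns labelled oocyte only, and Cdc25b (2.24) after thinning. With means the count stayed at 2, through Ccnb3 (3.49) and Cdc25b (2.15), with Bub1b at 1.95. The number rose in other settings: Cdc25b passed 2-fold beside Ccnb3 and Bub1b with DESeq2 size factors (2.02) and with Zfp352 at 10 CPM (2.01). Among columns labelled oocyte, members higher were 1 with TMM factors, DESeq2 size factors, means, the stricter column filter or thinning, and 1 to 2 with 1 column left out. Among columns labelled 2-cell, members lower and higher were 4 and 1 with medians, 1 and 2 with means, and 1 and 2 with thinning; 1 was higher without columns rich in cumulus RNA, and 0 to 2 with 1 column left out. The cause was not tested. Bub1b and Ccnb3 held no count in 13 and 15 of 39 2-cell-like columns, where their rho with total counts was -0.11 and -0.18.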

Other observations

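Within the 2-cell-like class, columns under the 2 mutant labels, Padi6P620A/P620A oocytes and Padi6MatP620A/+ 2-cell embryos, had different medians of several members. Wee2, the oocyte Wee kinase, had 614 to 1956 CPM (median 1082) in the 19 labelled mutant oocyte and 253 to 1056 CPM (median 745) in the 11 labelled mutant 2-cell. Ccnb1 had medians of 1727 and 1319 CPM in the same order, and Cdk1 medians of 50.0 and 97.3 CPM. The ranges overlapped for all 3 genes, and no test was run. Other members lay nearer each other, such as Cdc20 with medians of 233 and 224 CPM. The 3 genes were named with their values known and no share over all genes was taken. The differences therefore cannot be called particular to them.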
